A study of Homo sapiens with 12 samples.

Results

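The 4 libraries numbered replicate 3, 1 from each group of an RNA-seq study of 12, were compared with the 8 libraries numbered 1 and 2, with the 4 groups as blocks. Members were taken by the number in each sample's title, although number 3 was singled out with earlier results of these data known. The cells were HEK293T, an established human embryonic kidney line, transiently transfected with 1 µg of a control vector or of a plasmid for TRPML3, an endolysosomal cation channel encoded by MCOLN3. They were then kept in 10% serum (fed) or in 0% serum for 4 h (starved) before polyadenylated RNA was sequenced. The groups are therefore vector fed, vector starved, TRPML3 fed and TRPML3 starved, each with 3 libraries described as biological triplicates. All groups share the cell line, the transfection and the RNA selection on poly(A). The labels attach no culture date, passage or preparation batch to the numbers, so p-values measure the spread between these libraries.

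As background, several classes of RNA are known to be sensitive to how cells are grown and how RNA is handled. Messenger RNAs of the mitochondrial genome carry short poly(A) tails and are cut from long polycistronic transcripts. Most replication-dependent histone mRNAs, small nucleolar RNAs and other short non-coding RNAs lack a poly(A) tail, so a poly(A) library holds little of them. Immediate early genes such as EGR1, FOS and JUN are induced within minutes by serum, by fresh medium or by stress. Their products and the dual-specificity phosphatases of the DUSP family shape signalling through the ERK kinase. Genes for ribosome assembly follow growth signals, whereas FOXO and MondoA targets respond to insulin signalling and to glucose.

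Library totals ran from 33101540 to 43700547 counts, and the mean total of replicate 3 differed from that of replicates 1 and 2 with a two-sided exact permutation p of 0.889 over the 81 placements of the number within groups. MCOLN3 lay between 9.31 and 18.4 CPM (counts scaled to library size, corrected by TMM factors) in the 6 vector libraries and between 4929 and 58223 CPM in the 6 TRPML3 libraries, so no library went against its plasmid label. The 15 tested markers of the HEK293T line took 0.12% to 0.183% of counts. Marker lists of fibroblasts, blood cells, hepatocytes and epithelial carcinoma lines took at most 0.00485%, 0.000341%, 0.000492% and 0.0013%, respectively, in any library.

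Replicate 3 stood apart from the other libraries in its order of fed and starved values. On the first principal component (17.3% of the variance of log2 CPM), the 4 fed libraries of replicates 1 and 2 lay between -57.9 and -44.1 and their 4 starved libraries between 33.8 and 61.6. In replicate 3 the order was the opposite, with both libraries labelled fed at 53.6 and those labelled starved at -28.2 and -47.5. The second component (14% of the variance) set the replicate 3 libraries labelled starved, at -84.1 and -87.6, apart from the other 10, which lay between -17 and 55.2. The third component (10.4%) set the replicate 3 libraries labelled fed, at 54.3 and 73.8, apart from the other 10, which lay between -74.9 and 20.6. Whether the serum labels of replicate 3 hold was not tested; all results below keep the labels as given. Each value for fed or starved cells of replicate 3 refers to the libraries so labelled.

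**Figure D1:**
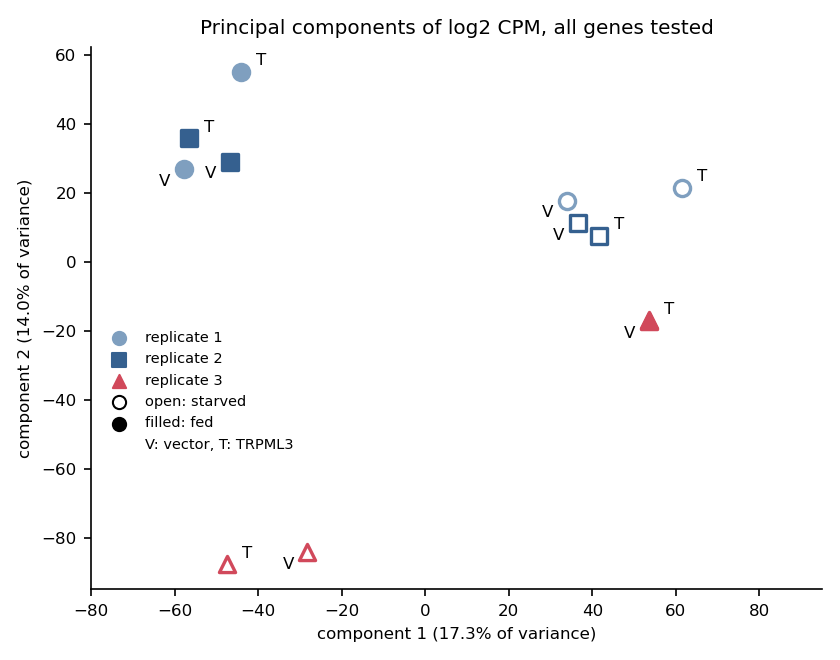
Each point is 1 library, placed by its first 2 principal components of log2 CPM; colour and shape give the replicate number, filled points are labelled fed and open points starved, and V or T marks the plasmid. The replicate 3 fed libraries (53.6 on component 1) lie near the starved libraries of replicates 1 and 2 on these 2 components, and the replicate 3 starved libraries lie alone at -84.1 and -87.6 on component 2.

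Across all 18030 genes that passed the low-count filter (of 41878), replicate 3 differed from replicates 1 and 2 in 3 genes at an adjusted p under 0.05 (0.0166% of genes tested; edgeR's quasi-likelihood test, Benjamini-Hochberg). The mitochondrial mRNAs MT-CO2 and MT-ND4L were higher (0.0111%) and OSTN was lower (0.00555%). An unadjusted p under 0.05 was reached by 2266 genes (12.6%), 1109 higher (6.15%) and 1157 lower (6.42%), and the DESeq2 Wald test called 1024. By the same fit, replicate 2 against replicate 1 gave 0 genes at an adjusted p under 0.05, 519 at an unadjusted p under 0.05 (2.88%) and 55 with the DESeq2 Wald test. The 3 calls depended on the libraries entered: leaving out 1 library at a time gave 18 calls without TRPML3 fed replicate 2, 1 call without vector fed replicate 2 or TRPML3 fed replicate 3, and 0 without any of the other 9. The unadjusted count stayed between 1872 and 2426 in those 12 fits. Each of them also had fewer residual degrees of freedom than the 6 of the full fit. Of the summed squares of log2 CPM over all genes, 12.9% lay between replicate 3 and the others and 7.63% between replicates 2 and 1. A larger share, 16.3%, lay in the part of the replicate 3 difference that changed with serum state, against 11.5% for serum state itself. The fit with the 3 calls gives replicate 3 the same effect in both serum states. That part therefore enters its residual and can lower its number of calls. Over the 18030 genes, the fed and starved replicate 3 differences had Pearson's r of -0.13 and Spearman's rho of -0.11.

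The mRNAs of the mitochondrial genome were higher in replicate 3 in every group. MT-CO2, a catalytic subunit of cytochrome c oxidase, stood with the vector at 1245, 250.3 and 3171 CPM fed and 1425, 449 and 2857 starved, and with TRPML3 at 1098, 622 and 2929 fed and 1435, 493 and 2953 starved, values being in the order of replicates 1, 2 and 3 here and below. Replicate 3 was the highest library of every group, replicate 2 the lowest, and the 3 numbers did not overlap across the 12 libraries. The log2 fold change of replicate 3 over replicates 1 and 2 was 1.98 ± 0.19 (SE; adjusted p = 0.0462, edgeR's quasi-likelihood test). MT-ND4L, a membrane subunit of complex I whose reading frame overlaps that of a neighbour, stood with the vector at 3416, 950.3 and 7126 CPM fed and 3591, 1386 and 5051 starved, and with TRPML3 at 3149, 1916 and 6929 fed and 3536, 1225 and 7180.5 starved. Its log2 fold change was 1.61 ± 0.16 with the same adjusted p. The complex IV subunit MT-CO1 ranged from 4065 to 5533 CPM in replicate 3 and from 674 to 3557 CPM in replicates 1 and 2, again without overlap.

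All 13 mitochondrial mRNAs were above both other libraries in 4 of 4 groups, a pattern seen in 790 of the 18030 genes (4.38%). All 13 were also higher at an unadjusted p under 0.05 (6.15% of all genes), with a median log2 difference of 1.61, against 0.02 over all genes. MT-ATP6, of the ATP synthase, had a log2 fold change of 1.64 ± 0.19, MT-ND1, of complex I, 1.56 ± 0.18, and MT-CO3, of complex IV, 1.71 ± 0.21, each with an adjusted p of 0.0623 that missed the threshold. Together the 13 mRNAs took 3.25% to 3.87% of all counts in the replicate 3 libraries, 1.89% to 2.24% in replicate 1 and 0.521% to 1.22% in replicate 2. The 3 numbers thus did not overlap, and replicates 1 and 2 differed as well: replicate 2 was below replicate 1 at an unadjusted p under 0.05 in 12 of 13 (1.55% of all genes; 1.33% were above), with a median log2 difference of -1.38. The medians were 1.70 in the fed and 1.48 in the starved libraries, and the test of the difference between serum states gave 0 of 13 at an unadjusted p under 0.05.

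The other RNAs of the mitochondrial genome were less even. MT-RNR1, the small ribosomal RNA, was highest in replicate 3 in all 4 groups (log2 fold change 1.23 ± 0.29), and MT-RNR2, the large one, in 3 of 4 (1.15 ± 0.35), with adjusted p of 0.163 and 0.235. Of the 20 mitochondrial tRNA rows tested of 22, 12 were higher at an unadjusted p under 0.05 and 0 lower (6.15% and 6.42% of all genes), with a median of 1.61. Subunits of the same respiratory complexes that are encoded in the nucleus showed medians near 0: 0.07 for the 37 of complex I (2 higher and 0 lower at an unadjusted p under 0.05) and 0.03 for the 34 of complexes III to V (1 and 1). The share of counts from mitochondrial mRNAs is also used as a sign of RNA or cell quality; its part in the other differences was not tested. In bulk RNA, fewer cells that express a gene and less RNA per cell cannot be told apart.

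**Figure D2:**
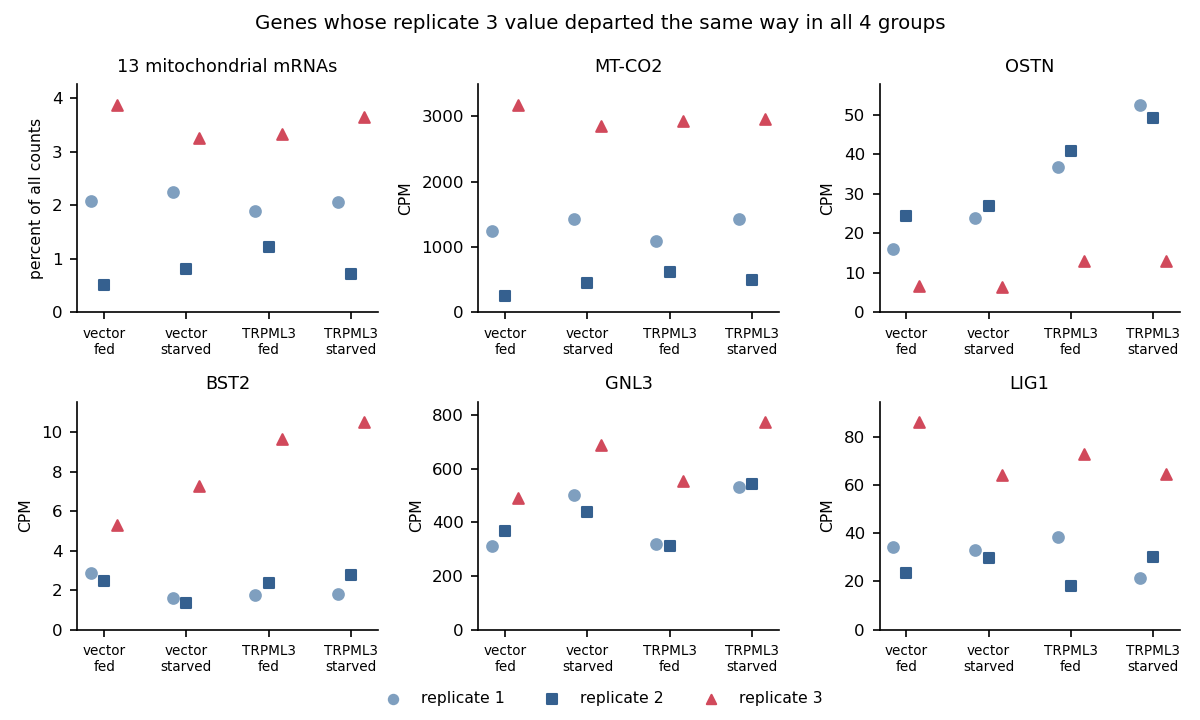
Points are single libraries by group (horizontal axis), coloured by replicate number; the first panel gives the summed share of the 13 mitochondrial mRNAs in percent of all counts and the others give CPM on axes that start at 0. Replicate 3 lies outside both other libraries in each group of each panel, above them in 5 panels and below them for OSTN.

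Among nuclear genes, OSTN, which encodes the secreted peptide osteocrin (chromosome 3), was the 1 gene with an adjusted p under 0.05. It stood with the vector at 16.1, 24.4 and 6.57 CPM fed and 23.9, 27 and 6.46 starved, and with TRPML3 at 36.8, 40.9 and 13.1 fed and 52.4, 49.2 and 12.9 starved. Replicate 3 was the lowest of each group, and the log2 fold change was -1.78 ± 0.18 (SE; adjusted p = 0.0462, edgeR's quasi-likelihood test). Part of its exons overlap an antisense gene, and whether counting used strand is not given in the sources used here.

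Several genes missed the threshold while lying on 1 side in all 4 groups. BST2, the membrane protein tetherin that is induced by interferon, lay between 5.28 and 10.5 CPM against 1.34 to 2.86 (log2 fold change 1.97 ± 0.26, adjusted p = 0.0649, edgeR). LIG1, the DNA ligase of replication, lay between 64.2 and 86 CPM against 18.1 to 38.4 (1.34 ± 0.21, adjusted p = 0.0827). Neither gene overlapped between replicate 3 and the other 8 libraries. GNL3, the nucleolar GTPase nucleostemin, was the highest of its group in replicate 3 throughout, from 489 to 773 CPM against 309.8 to 544, so the ranges overlapped across groups (0.60 ± 0.09, adjusted p = 0.077). The stress-induced cytokine gene GDF15 lay between 1.86 and 2.93 CPM against 0 to 0.577 (2.80 ± 0.59, adjusted p = 0.139). At these levels GDF15 can pass the low-count filter through the replicate 3 libraries alone, so its values are a description. On the lower side, the lipoprotein receptor gene VLDLR lay between 6.42 and 10.2 CPM against 10.9 to 38.1 (-1.32 ± 0.23, adjusted p = 0.105). TRIB2, a pseudokinase and FOXO target, was also lowest in replicate 3 in each group (-1.15 ± 0.26, adjusted p = 0.147).

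Lists of RNAs that lack a poly(A) tail had positive medians in replicate 3, but 0 of their genes had an adjusted p under 0.05 (edgeR; the counts at an unadjusted p follow) and their summed counts did not all go the same way. Of 60 listed histone genes, 40 passed the filter. At an unadjusted p under 0.05, 16 were higher and 1 lower (6.15% and 6.42% of all genes). The median log2 difference was 0.94 (0.60 without vector fed replicate 3). The summed share of the histone list went against its median: it was below both other libraries in 4 of 4 groups, at 0.0245% to 0.0353% of counts against 0.0375% to 0.0766%. H2BC4 lay between 1.24 and 2.75 CPM in replicate 3 against 0.392 to 1.58 in the others, and was the highest of its group in 4 of 4 groups (log2 fold change 1.49 ± 0.34, adjusted p = 0.151, edgeR). The histone medians by group were 1.78 (vector fed), 0.88 (vector starved), 0.35 (TRPML3 fed) and 0.09 (TRPML3 starved). The test of the replicate 3 difference between plasmids had 0 of 40 genes at an adjusted p under 0.05 and 0 at an unadjusted p under 0.05 in either direction.

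Of 63 tested small nucleolar RNA rows (of 522), 18 were higher and 0 lower at an unadjusted p under 0.05 (median 0.59), and of 13 tested other short non-coding RNAs (of 25 listed), 8 and 0 (median 1.12; 0.65 without vector starved replicate 3). Over all genes these shares were 6.15% and 6.42%. The summed share of the small nucleolar RNAs was above both other libraries in 4 of 4 groups. That of the other short RNAs was above both in the 2 vector groups and below both in TRPML3 starved cells (0.0101% against 0.0143% and 0.0154%). Without the filter on low counts the small nucleolar RNA median was 0.07. RN7SK, which holds the elongation factor P-TEFb inactive, stood with the vector at 22.2, 7.84 and 83.6 CPM fed and 11.4, 29.3 and 83.2 starved, and with TRPML3 at 14.4, 29.6 and 36.9 fed and 21.9, 22.9 and 57.8 starved. Replicate 3 was the highest of every group, with a wide spread among the others (log2 fold change 1.71 ± 0.40, adjusted p = 0.161, edgeR). Members of these lists can pass the filter through the replicate 3 libraries alone, so their counts are descriptions. Host genes of small nucleolar RNAs, which are polyadenylated, had 8 of 23 higher and 0 lower (median 0.29; 0.10 without vector starved replicate 3 and 0.18 without TRPML3 starved replicate 3), and the median was -0.03 in fed and 0.48 in starved cells.

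Interferon-stimulated genes had 9 of 31 tested (of 36 listed) higher and 0 lower at an unadjusted p under 0.05 (6.15% and 6.42% of all genes), with a median of 0.32. In all 4 groups 10 lay above both other libraries (4.38% of all genes). Low-count members of this list can pass the filter through the replicate 3 libraries alone, so its counts are descriptions. IFI44 lay between 1.78 and 2.37 CPM against 0.299 to 1.26 (log2 fold change 1.62 ± 0.34, adjusted p = 0.139, edgeR). The list's summed share of counts did not follow these counts: it was below both other libraries in 3 of 4 groups and above both in TRPML3 starved cells (0.0846% against 0.0737% and 0.0751%). HOX genes, which specify position along the body axis, had 1 of 39 higher and 9 lower (median -0.26). Of the 39, 6 lay below both other libraries in 4 of 4 groups (4.46% of all genes), and their summed share was below both other libraries in 4 of 4 groups. C2H2 zinc finger genes named ZNF had 11 of 521 higher and 64 lower (median -0.18; -0.08 without TRPML3 starved replicate 3, and -0.28 and -0.29 without vector or TRPML3 fed replicate 3). Their median was 0.07 in fed cells (-0.05 when scaled by library size only) and -0.49 in starved cells, where 131 were lower and 23 higher (10.1% and 8.98% of all genes). The difference between the states was negative in 126 and positive in 31 at an unadjusted p under 0.05 (11.3% and 10.8% of all genes). It was so in 7 and 2 at an adjusted p under 0.05 (0.81% and 0.438% of all genes; edgeR).

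Split by serum state, the replicate 3 difference had 2 genes at an adjusted p under 0.05 in fed cells (0.0111%) and 3 in starved cells (0.0166%), with 3735 (20.7%; 10.3% higher and 10.4% lower) and 3435 (19.1%; 8.98% higher and 10.1% lower) at an unadjusted p under 0.05. Each of these comparisons sets 2 replicate 3 libraries, vector and TRPML3, against 4 libraries of replicates 1 and 2. The replicate 3 difference itself differed between serum states in 225 genes at an adjusted p under 0.05 (1.25%; 79 more positive, 0.438%, and 146 more negative, 0.81%, in starved cells). This is the same test as whether starved minus fed in replicate 3 differs from that in replicates 1 and 2. The same test for replicate 2 against 1 called 0 genes with edgeR, with 636 at an unadjusted p under 0.05 (3.53%) and 107 with DESeq2. Both edgeR tests came from a fit with 4 residual degrees of freedom. Each library left out lowers them, so lost calls need not come from that library's own values. The call of 225 was sensitive to single libraries: 11 genes had an adjusted p under 0.05 without vector starved replicate 3, 7 without TRPML3 starved replicate 3, 4 without vector fed replicate 3, 1 without TRPML3 starved replicate 2 and 0 without any of the other 8. The unadjusted count of 3984 (22.1%) lay between 2749 and 3897 in those fits.

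**Figure D3:**
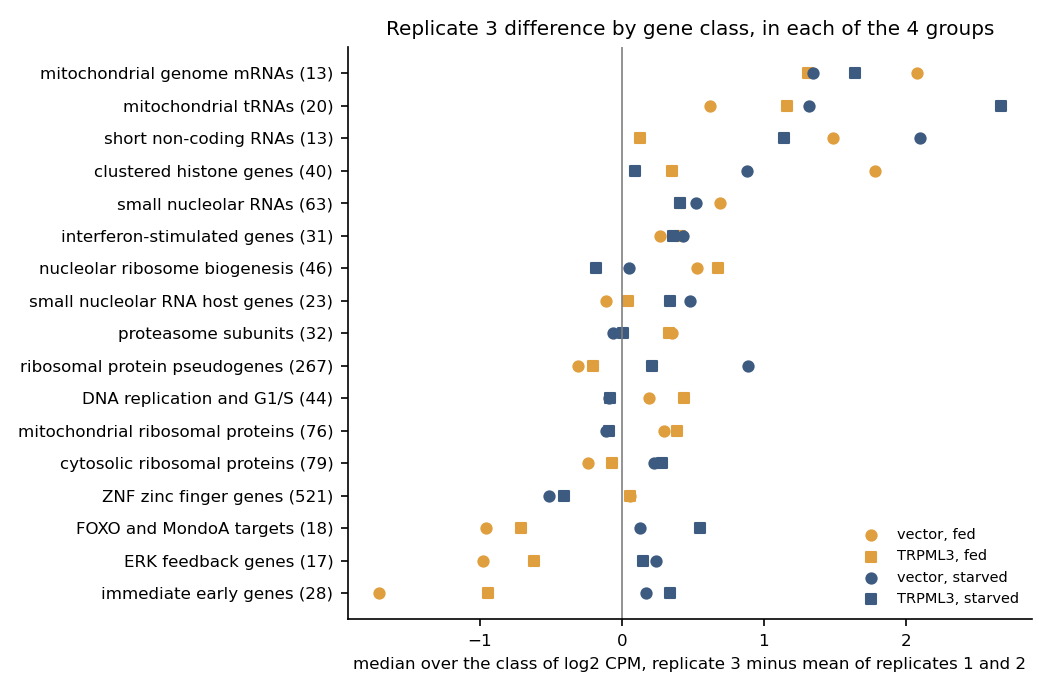
For each gene class (number tested in brackets), points give the median over the class of log2 CPM in replicate 3 minus the mean of replicates 1 and 2, once per group; orange is fed, blue starved, circles vector and squares TRPML3. Mitochondrial mRNAs lie to the right in all 4 groups (1.31 to 2.08), whereas immediate early genes lie at -1.71 and -0.94 in fed and at 0.17 and 0.34 in starved groups.

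Immediate early genes split by serum state. In fed cells 18 of 28 tested were lower and 0 higher in replicate 3 at an unadjusted p under 0.05 (median -1.23), whereas in starved cells 1 was lower and 6 higher (median 0.35; 0.22 and 0.20 without TRPML3 starved replicate 1 or 3). Over all genes 10.4% were lower and 10.3% higher in fed cells, and 10.1% and 8.98% in starved cells. The difference between the states was positive in 18 and negative in 0 at an unadjusted p under 0.05 (10.8% and 11.3% of all genes), and JUN had an adjusted p under 0.05. JUN, a component of the AP-1 factor, stood with the vector at 835, 694 and 198 CPM fed and 384, 423 and 480.5 starved, and with TRPML3 at 753, 639.7 and 275 fed and 399, 413 and 557 starved. The replicate 3 value was the lowest of each fed group and the highest of each starved group, and the log2 difference between the states was 1.98 ± 0.22 (SE; adjusted p = 0.0446, edgeR). EGR1, a zinc finger factor of the early serum response, stood with the vector at 210.5, 344 and 39.4 CPM fed and 309, 326 and 196 starved, and with TRPML3 at 466, 318 and 49.1 fed and 271, 393 and 199 starved. It was lowest in replicate 3 in all 4 groups, by a log2 difference of -2.90 ± 0.30 when fed (adjusted p = 0.0554, edgeR) and -0.71 ± 0.27 when starved (adjusted p = 0.232).

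Genes that limit ERK signalling were lower in fed replicate 3 libraries in 9 of 17 and higher in 0 (10.4% and 10.3% of all genes), with a median of -0.79. At an unadjusted p under 0.05, 7 of 17 had a positive difference between the states (10.8% of all genes), DUSP1 and DUSP6 at an adjusted p under 0.05. DUSP1, a phosphatase of MAP kinases, stood with the vector at 86.4, 94.4 and 19.1 CPM fed and 35.8, 38.3 and 48.2 starved, and with TRPML3 at 88.1, 89.2 and 28.3 fed and 38.3, 50.1 and 57.3 starved. Like JUN, it was lowest of the fed and highest of the starved groups in replicate 3 (log2 difference 2.32 ± 0.27, adjusted p = 0.0446, edgeR). DUSP6, which acts on ERK itself, lay at 0.631 and 1.04 CPM in fed replicate 3 and at 3.21 to 6.22 in fed replicates 1 and 2, without overlap. In starved cells the order was the opposite, with 0.99 and 1.16 CPM in replicate 3 and 0.496 to 0.661 in the others (log2 difference 3.38 ± 0.41, adjusted p = 0.0446, edgeR).

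The sequence before the start site is shown for EGR1 and DUSP1, because these genes are known for serum and cAMP response elements in their proximal promoters and had low values in fed replicate 3. The 250 bases upstream of each RefSeq start (GRCh38.p14) are chr5:138465229-138465478 on the plus strand for EGR1 and chr5:172771196-172771445 on the minus strand for DUSP1. Capitals mark CArG boxes, the serum response element core, and the CRE core TGACGT on either strand, by the same search in both windows.
EGR1: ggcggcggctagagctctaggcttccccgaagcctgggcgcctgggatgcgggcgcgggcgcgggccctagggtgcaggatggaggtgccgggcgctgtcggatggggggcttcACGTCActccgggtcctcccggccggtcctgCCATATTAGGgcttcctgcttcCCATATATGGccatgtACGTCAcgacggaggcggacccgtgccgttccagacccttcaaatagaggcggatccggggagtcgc
DUSP1: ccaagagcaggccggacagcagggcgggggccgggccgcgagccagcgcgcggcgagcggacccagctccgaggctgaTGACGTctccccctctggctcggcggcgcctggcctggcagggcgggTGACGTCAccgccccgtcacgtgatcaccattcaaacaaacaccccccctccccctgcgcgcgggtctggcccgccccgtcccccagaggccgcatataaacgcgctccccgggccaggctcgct
The EGR1 window holds 2 CArG boxes and 2 CRE cores, and the DUSP1 window 0 CArG boxes and 3 CRE cores, of which 2 overlap in 1 full palindrome TGACGTCA. Over all 35116 promoter windows of this length, 1.16% held a CArG box and 7.10% the CRE core. Among the 26 windows found for immediate early genes (20 genes), 3 held a CArG box and 8 the CRE core, and among the 19 windows of ERK feedback genes (13 genes), 0 and 4. A match is a string of letters and does not show that a factor was bound in these cells.

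**Figure D4:**
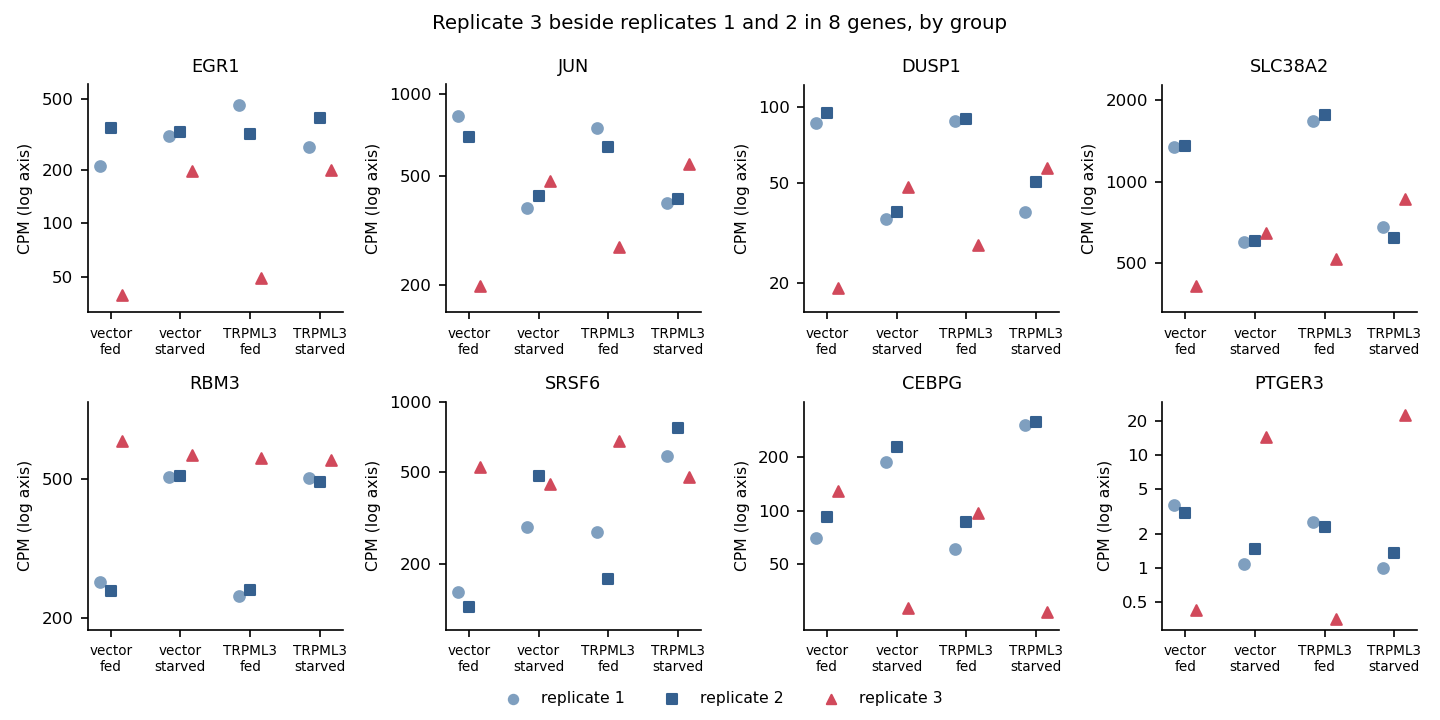
CPM of 8 genes on log axes, 1 point per library by group, coloured by replicate number. In JUN, DUSP1 and SLC38A2 the replicate 3 point is the lowest of the fed groups and the highest of the starved groups, and in CEBPG the 2 starved replicate 3 points (26.9 and 28.5 CPM) lie below all other libraries.

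FOXO and MondoA targets behaved similarly in count: 9 of 18 were lower and 0 higher in fed replicate 3 (10.4% and 10.3% of all genes), with a median of -0.76. At an unadjusted p under 0.05, 9 had a positive and 1 a negative difference between the states (10.8% and 11.3% of all genes). BCL6, a transcriptional repressor, stood with the vector at 27.8, 19.6 and 6.91 CPM fed and 7.52, 7.38 and 11.1 starved, and with TRPML3 at 22.6, 23.1 and 3.16 fed and 8.7, 8.89 and 15.1 starved (log2 difference between states 2.95 ± 0.44, adjusted p = 0.0479, edgeR). The fed replicate 3 values were the lowest of their groups and the starved ones the highest. CCNG2, an unconventional cyclin, gave 1.77 ± 0.27 (adjusted p = 0.0483). BMP and TGF-beta response genes had 7 of 17 lower and 0 higher in fed cells (median -0.83), with none past an adjusted p of 0.05.

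The 2 genes called in fed cells were SLC38A2 and RBM3. SLC38A2, a neutral amino acid transporter, stood with the vector at 1342, 1355 and 410.4 CPM fed and 599.5, 602 and 648 starved, and with TRPML3 at 1674, 1759.9 and 519 fed and 681, 619.6 and 862 starved. Fed replicate 3 lay under every other library (log2 fold change -1.72 ± 0.11, adjusted p = 0.045, edgeR), while starved replicate 3 was slightly above its group (0.26 ± 0.10, adjusted p = 0.247). RBM3, an RNA-binding protein induced by mild cold, stood with the vector at 253, 238 and 643 CPM fed and 507, 511 and 588 starved, and with TRPML3 at 231, 239.6 and 577 fed and 503, 491 and 566 starved. All 4 replicate 3 values lay above the other 8, by more in fed cells, where the log2 fold change was 1.34 ± 0.09 (adjusted p = 0.045, edgeR), than in starved cells (0.20 ± 0.09); the difference between the states was -1.14 ± 0.13 (adjusted p = 0.0446). Neither gene was called in any of the 12 fits that left out 1 library. In those fits the fed log2 fold change stayed between -1.73 and -1.69 for SLC38A2 and between 1.29 and 1.40 for RBM3. The fed comparison then called 9 other genes without TRPML3 fed replicate 2, 4 without vector fed replicate 3 and 0 without any of the other 10. Values that missed the threshold in fed cells include those of POP1, a subunit of RNase P and RNase MRP (log2 fold change 2.60 ± 0.21, adjusted p = 0.0554), and the amino acid transporter gene SLC43A1 (-5.66 ± 0.53, adjusted p = 0.0554). SLC43A1 stood at 0.143 and 0.293 CPM in fed replicate 3 and between 7.05 and 13.9 in the other 10 libraries.

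Growth-related genes had the opposite tendency in fed cells. Beside the counts that follow, 10.3% of all genes were higher and 10.4% lower at an unadjusted p under 0.05 in fed cells, and 8.98% and 10.1% in starved cells. Nucleolar ribosome biogenesis genes were higher in 19 of 46 and lower in 0 (median 0.60) in fed replicate 3, against 3 higher and 5 lower in starved (median -0.12; 0.07 without TRPML3 starved replicate 3, and -0.28 and -0.19 without vector starved replicate 1 or 3), and DDX18 and UTP20 passed the test of the difference. DDX18, an RNA helicase, stood with the vector at 234, 274 and 468 CPM fed and 428, 481 and 106 starved, and with TRPML3 at 179, 151 and 461 fed and 395, 284 and 145 starved. Replicate 3 was the highest of each fed and the lowest of each starved group (log2 difference -2.83 ± 0.40, adjusted p = 0.0479, edgeR). UTP20, of the small-subunit processome, gave -2.51 ± 0.39 (adjusted p = 0.0496). GNL3 and NOLC1, by contrast, were the highest of their group in replicate 3 under both serum states.

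Mitochondrial ribosomal protein genes were higher in 19 of 76 and lower in 1 in fed cells (10.3% and 10.4% of all genes, median 0.30) and higher in 1 and lower in 6 in starved cells (8.98% and 10.1% of all genes, median -0.13), with MRPS18A (-1.99 ± 0.31) and MRPS11 (-1.98 ± 0.30) called for the difference. Proteasome subunits (14 of 32 higher and 0 lower in fed, median 0.35), DNA replication genes (14 of 44 and 1, median 0.35, or 0.18 without TRPML3 fed replicate 3) and cytosolic aminoacyl-tRNA synthetases (8 of 20 and 0, median 0.37) were likewise higher in fed replicate 3 and near 0 in starved (medians -0.06, -0.06 and -0.03). None of these 3 lists held a gene at an adjusted p under 0.05. Cytosolic ribosomal protein genes went the other way by small amounts, with 2 of 79 higher and 16 lower in fed (median -0.12) and 17 higher and 0 lower in starved cells (median 0.26). Their processed pseudogenes, near-identical copies that can share reads with them, had medians of -0.28 and 0.59 over the 267 tested of 1496. Leaving out 1 library moved these to between -0.4 and -0.11 (highest without TRPML3 fed replicate 2) and between 0.2 and 1.02 (without vector or TRPML3 starved replicate 3). Of 5 cold-inducible RNA-binding genes, RBM3 and the splicing factor gene SRSF5 had a difference between the states that passed the test (SRSF5 -1.28 ± 0.13, adjusted p = 0.0446, edgeR). Of 41 splicing regulators SON did, in the other direction (1.87 ± 0.25, adjusted p = 0.0446). Among chaperones, DNAJB9 of the endoplasmic reticulum (1.97 ± 0.25) and cytosolic DNAJB4 (1.69 ± 0.21) were lowest of the fed and highest of the starved groups in replicate 3. Their lists as a whole had medians near 0 for the difference between the states. The median was 0.07 for 32 ER chaperone and unfolded protein response genes, with 1 gene called in each direction. It was 0.11 for 33 heat shock genes, with 1 called positive and 0 negative.

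In starved cells the 3 calls were PTGER3, CEBPG and RTL10. PTGER3, a prostaglandin E2 receptor, stood with the vector at 3.6, 3.04 and 0.43 CPM fed and 1.08, 1.47 and 14.3 starved, and with TRPML3 at 2.54, 2.32 and 0.359 fed and 0.993, 1.35 and 22.6 starved. The starved replicate 3 values lay above and the fed ones below all other libraries (starved log2 fold change 3.91 ± 0.25, adjusted p = 0.0324, edgeR). CEBPG, a bZIP partner of ATF4, stood with the vector at 70.4, 92.5 and 129 CPM fed and 188, 227 and 28.5 starved, and with TRPML3 at 61.1, 85.9 and 97.4 fed and 301, 315 and 26.9 starved. It lay lower in starved replicate 3 than in any other library (-3.17 ± 0.22, adjusted p = 0.0337). RTL10, a gene of retrotransposon origin that overlaps a neighbour on the same strand, had 0 counts in both starved replicate 3 libraries and 12.5 to 33 CPM in the other 10. Against a floor of 3 counts over those 2 libraries (0.038 CPM), it was at least 666-fold lower than the 25.3 CPM mean of starved replicates 1 and 2. Leaving out 1 library at a time gave 8 starved calls without vector starved replicate 3, 2 without vector fed replicate 2, TRPML3 fed replicate 2, TRPML3 starved replicate 2 or TRPML3 starved replicate 3, and 0 without any of the other 7.

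ELAVL3 and DGKI reached levels in starved replicate 3 above those of the other 10 libraries. The neuronal RNA-binding protein gene ELAVL3 lay at 3.38 and 4.49 CPM there against 0.49, 0.588, 0.263 and 0.599 in starved replicates 1 and 2 (difference between the states 6.36 ± 0.59, adjusted p = 0.0446, edgeR; its exons overlap a neighbour). DGKI, a diacylglycerol kinase, was at 5.31 and 2.66 CPM in starved replicate 3 and had 0 counts in both fed replicate 3 libraries, at least 9.78-fold below the fed mean of 0.447 CPM in replicates 1 and 2. ZNF629 lay at 94.9 and 66.7 CPM in fed replicate 3 and 15.8 and 4.37 in starved, against 6.38 to 23 and 32.9 to 54.9 in the same states of replicates 1 and 2 (-5.05 ± 0.46, adjusted p = 0.0446). Of the 225 genes whose difference changed with serum state, both starved replicate 3 libraries lay outside the range of the other 10 in 70 (31.1%; 12.0% of all genes), and both fed ones in 58 (25.8%; 7.53% of all genes). These counts describe genes chosen by the same values.

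The same 225 genes can be read by level. In 208 (92.4%) the fed replicate 3 mean was nearer the starved than the fed mean of replicates 1 and 2, and in 176 (78.2%) the starved replicate 3 mean was nearer the fed mean. Both held in 163 (72.4%). Over all genes tested these shares were 61.0%, 51.0% and 27.1%. The choice of the 225 by the same contrast favours such patterns, so nothing further is read from them.

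Starved minus fed was then compared between numbers, which share no library. In replicates 1 and 2, 462 genes had an adjusted p under 0.05 (2.56%; 282 higher, 1.56%, and 180 lower, 0.998%, when starved; 148 higher and 226 lower when scaled by library size only). Of the 282, 219 (77.7%) had the opposite sign in replicate 3, with median log2 differences of 1.14 in replicates 1 and 2 and -0.371 in replicate 3. At an unadjusted p under 0.05 in replicate 3, 98 were opposite and 14 had the same sign (7.74% of all genes were lower and 6.92% higher there). Of the 180, 126 (70%) were opposite, with medians of -1.29 and 0.338, and 45 were opposite and 11 the same at an unadjusted p under 0.05. Over all genes 60% had opposite signs. By level, the fed replicate 3 mean was nearer the starved than the fed mean of replicates 1 and 2 in 411 of the 462 (89.0%; 61.0% of all genes). The starved replicate 3 mean was nearer the fed mean in only 188 (40.7%; 51.0% of all genes). Both held in 160 (34.6%; 27.1% of all genes), a smaller share than among the 225 genes above. The starved minus fed values over 18030 genes had Pearson's r of 0.35 and Spearman's rho of 0.43 between replicates 1 and 2, r of -0.17 and rho of -0.21 between 1 and 3, and r of -0.16 and rho of -0.21 between 2 and 3. Genes within a library are not independent replicates, so these values are descriptions. Every single library left out, which also lowers the 4 residual degrees of freedom, reduced the 462 to between 0 and 7.

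**Figure D5:**
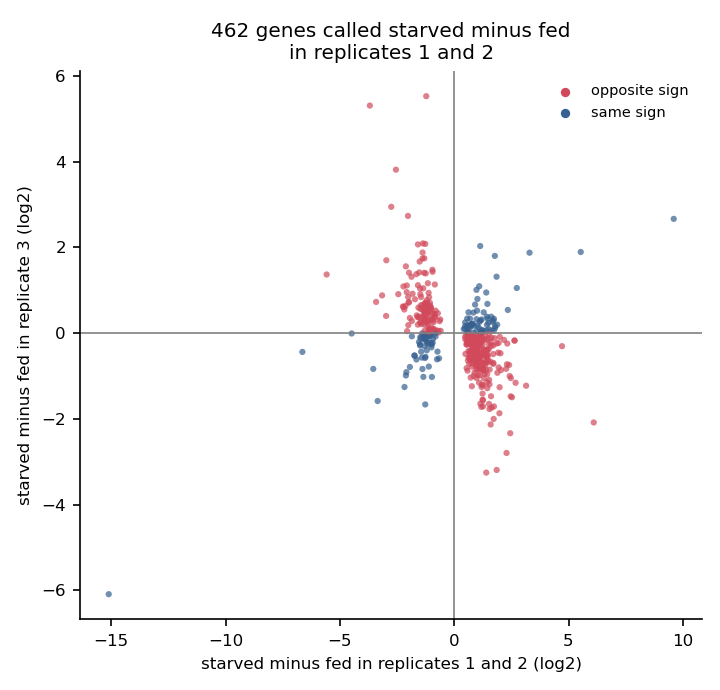
Each point is 1 of the 462 genes with an adjusted p under 0.05 for starved minus fed in replicates 1 and 2 (horizontal axis, log2); the vertical axis gives the same difference in replicate 3 (log2). Red points, of opposite sign in replicate 3, are 219 of the 282 to the right and 126 of the 180 to the left of 0; the fitted value of the point far to the left depends on the prior count.

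In replicate 3 alone, starved minus fed had 2 genes at an adjusted p under 0.05 (PTGER3 and RTL10; 0.0111%) and 2643 at an unadjusted p under 0.05 (14.7%). This sets 2 against 2 libraries, with vector and TRPML3 cells as the replicates, whereas replicates 1 and 2 gave 4 against 4. The median SE was 0.431 in replicate 3 and 0.302 in replicates 1 and 2, so the 2 counts of calls differ in power. Averaged over the 12 libraries by group alone, starved minus fed had 0 genes at an adjusted p under 0.05 with edgeR, 1704 at an unadjusted p under 0.05 (9.45%) and 287 with DESeq2. Without the 4 replicate 3 libraries the same comparison had 810 calls, 459 higher and 351 lower. Without the replicate 1 libraries it had 1 call and without the replicate 2 libraries 0, at the same number of libraries.

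The difference did not change with plasmid to a size this design called. The replicate 3 difference in TRPML3 minus that in vector cells had 0 genes at an adjusted p under 0.05 with edgeR, 464 at an unadjusted p under 0.05 (2.57%) and 68 with DESeq2. In the TRPML3 libraries MCOLN3 itself stood at 6211, 4929 and 39972 CPM when fed and 41362, 58223 and 16896 when starved. Fed replicate 3 was thus above, and starved replicate 3 below, both other libraries of its group, within the range of the 6 TRPML3 libraries.

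Lists for the metabolism and stress responses of the cells differed less evenly. Over all genes, 6.15% were higher and 6.42% lower in replicate 3 at an unadjusted p under 0.05, and several lists lay near these shares. Glycolysis genes had 3 of 25 higher and 0 lower at an unadjusted p under 0.05 (median 0.29), and 20 of 25 had a positive difference (9425 of 18030 over all genes). ATF4 targets, of the amino acid and stress response, had 2 of 37 higher and 5 lower (median -0.18), and their summed share was below both other libraries in 4 of 4 groups, at 0.496% to 0.539% against 0.544% to 0.735%. The summed shares of YAP and TEAD targets (0 of 20 higher and 4 lower, median -0.19) and of metallothioneins with NRF2 targets (0 of 17 and 3, median -0.09) were likewise below both in 4 of 4 groups. So were those of ZNF genes and of solute carriers named SLC, whereas those of fatty acid synthesis and collagen genes were above both in 4 of 4 groups. Such shares also move with the mitochondrial mRNAs and MCOLN3, which are part of all counts. Neuronal development genes had 2 of 39 higher and 4 lower (median -0.27), and hypoxia-responsive genes 1 of 22 and 1 (median -0.19). Both lists split by serum state. The neuronal median was -0.50 in fed and 0.19 in starved cells, and the hypoxia median -0.32 and 0.21. Autophagy, lysosome and cholesterol synthesis genes had medians near 0. Autophagy genes had 1 of 49 higher and 2 lower at an unadjusted p under 0.05 for replicate 3 (median -0.01). Lysosome genes had 3 of 55 higher and 3 lower (median -0.01), although 11 were lower and 3 higher in starved cells alone (10.1% and 8.98% of all genes). Of 16 endolysosomal channels, CLCN7, a lysosomal chloride transporter, passed the test of the difference between the states (-1.94 ± 0.29, adjusted p = 0.0479, edgeR). Cholesterol synthesis genes had 0 of 24 higher and 2 lower (median 0.06). Protein-coding genes were also split into 5 bins of equal size by mean CPM. The lowest bin of 2784 had a median of -0.38 in fed and 0.39 in starved replicate 3, and the highest bin 0.07 and -0.05. At an unadjusted p under 0.05, the lowest bin had 317 lower and 134 higher in fed cells (10.4% and 10.3% of all genes). In starved cells it had 98 lower and 375 higher (10.1% and 8.98% of all genes). Bins by GC content of the longest transcript went from a median of -0.09 (lowest) to 0.08 (highest) over all groups, with 327 lower and 125 higher in the lowest bin and 116 lower and 203 higher in the highest. Both gradients were thus present beside the gene classes above, and their part in them was not tested.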

How the data were processed

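Polyadenylated RNA of 12 HEK293T libraries was sequenced; per the labels, each group had biological triplicates. The deposited table of raw counts per gene was used for all main results. The authors also deposited a normalized signal per gene, which equals the raw count divided by 1 factor per library; it served 1 alternative only, as log2(value + 1). Per the submitters' processing notes the tools were FastQC, fastp, HISAT2, StringTie and DESeq2 and the build GRCh38; their settings, and whether counting used strand, are not given in the sources used here.

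Of 41878 genes, 18030 passed filterByExpr. Counts were scaled by TMM and fitted with edgeR 4.0.16 (robust quasi-likelihood, R 4.3.3) with group and replicate number as terms, and with replicate number within serum state or plasmid for the differences between them. Residual degrees of freedom were 6 with replicate number as a term and 4 with it within serum state or plasmid. P-values were adjusted by Benjamini-Hochberg over all genes tested, with a threshold of 0.05. CPM is the count scaled to the TMM-corrected library size, ± is the SE of a log2 fold change, and shares are percent of all counts. Alternatives used DESeq2 1.42.0, limma 3.58.1, other filters and scalings, and fewer libraries, which lowers the residual degrees of freedom. Scripts were tested on simulated data. Gene types and overlaps came from GENCODE 29, matched for 17132 of 18030 genes. Named genes are those called (up to a fixed number by fold change), or, where few were called, those with the smallest p, overall and in each list; genes added after seeing values are given as values. The members and lists were chosen with earlier results of these data known. No 2 libraries were identical. Results for some genes are not reported here.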

Additional observations from a re-analysis of the deposited data

Results flagged for a closer look

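The difference of replicate 3 from replicates 1 and 2 was itself tested between starved and fed cells, and 225 genes had an adjusted p under 0.05 (edgeR's quasi-likelihood test). The values below are log2 differences, starved minus fed, for named genes among them, and their cause was not tested.

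More positive in starved cells were PTGER3 (6.75), SLC38A2 (1.98), JUN (1.98), DUSP1 (2.32), DUSP6 (3.38), BCL6 (2.95), CCNG2 (1.77), DNAJB9 (1.97), DNAJB4 (1.69) and SON (1.87). The same direction was found for ELAVL3 (6.36), LHX1 (2.50), PCDH19 (3.03) and SLC43A1 (5.41). The rows ATP5MF-PTCD1 (9.96), MIR4680 (9.43) and TIMM23B-AGAP6 (5.70) overlap other genes, so their reads may belong to a neighbour. DGKI had 0 counts in both fed replicate 3 libraries and an adjusted p of 0.0446 by edgeR.

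More negative in starved cells were RBM3 (-1.14), SRSF5 (-1.28), CEBPG (-3.73), DDX18 (-2.83), UTP20 (-2.51), MRPS18A (-1.99), MRPS11 (-1.98) and POP1 (-2.33). Among the others were ZNF629 (-5.05), ZNF66 (-7.30), LINC01291 (-5.08), PARS2 (-8.19), EEF1AKMT1 (-6.16), DERL2 (-1.22), CLCN7 (-1.94) and ZYX (-2.06). RTL10 had 0 counts in both starved replicate 3 libraries and an adjusted p of 0.024 by edgeR. Fitted values of genes with counts at or near 0 in some libraries depend on the prior count.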

How the results depend on the processing

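Counts of genes at an adjusted p under 0.05 depended on the processing, and the cause was not tested. With the DESeq2 Wald test they were 1024 for replicate 3 against 1 and 2, 55 for replicate 2 against 1, 2529 in fed and 2077 in starved cells, 2740 for the difference between serum states (107 for replicate 2 against 1), 68 for that between plasmids, 2759 for starved minus fed in replicates 1 and 2, 1277 in replicate 3 and 287 on average. With no filter the replicate 3, fed and replicate 3 starvation counts were 0, the difference between states 2 and starvation in replicates 1 and 2 13. With at least 10 counts in every library they were 33 for replicate 3, 455 fed, 5 starved, 554 between states, 824 for starvation in replicates 1 and 2 and 1 in replicate 3. Scaled by library size only, the fed count was 1 and that between states 43 (27 higher and 16 lower, against 79 and 146), all 43 among the 225. Without the group block replicate 3 had 36 calls, and limma-trend gave 452 between states.

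Leaving out 1 library gave 0 to 18 calls for replicate 3, 0 to 9 fed, 0 to 8 starved, 0 to 11 between states, 0 to 1 between plasmids, 0 to 7 for starvation in replicates 1 and 2, 0 to 6 in replicate 3 and, with whole replicates also left out, 0 to 810 for average starvation. Leaving out a group gave 0 for replicate 3 and for both starvation comparisons by number, and 1 for average starvation without TRPML3 starved. With the replicate block, average starvation had 0 calls (1853 at an unadjusted p under 0.05). Deviations of libraries with the same number correlated at 0.095 to 0.33 within a serum state and at -0.13 to 0.044 across states. Libraries of the same number were thus little alike across states over all genes. The fit with group and replicate number as terms nevertheless gives each number the same effect in both states. The mitochondrial mRNAs were ordered by number in both states. Of 1921 alternative values for 85 named gene results, 1267 kept their side of the threshold or had no adjusted p, and 0 reversed. The 1267 include results that missed the threshold and stayed there. The genes were named from these same data, which favours a lack of reversals. Of 1479 values for class medians, 124 moved by more than the spread between groups and 22 (of 13 medians) changed sign. Among these were the fed ZNF median (0.07 to -0.05, library size only), the starved small nucleolar RNA median (0.43 to -0.11, no filter) and the fed short non-coding RNA median (0.75 to -0.41, without vector fed replicate 3). Library totals of 33101540 to 43700547 limit genes of low count most.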
